A study of Drosophila melanogaster with 9 samples.

Results

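The genes of 6 integrin subunits were followed in S2 cells, an embryonic Drosophila line with features of macrophages. They were mys, Itgbn, mew, if, scb and ItgaPS4, and every probe set was taken whose symbol in the annotation of the array was 1 of these 6. This gave 6 of 11573 named genes and 8 of 17899 probe sets other than controls, with 2 each for mys and mew. Cells had been given double-stranded RNA (dsRNA) for 72 h against NELF-B and NELF-E together (NELF dsRNA) or against bacterial beta-galactosidase (LacZ dsRNA), or were left untreated. Each group had 3 arrays, numbered as in the labels. All groups were grown in the same medium with 10% serum, and the labels give no genotype beyond the line. Whether a group's arrays stand for separate cultures is not stated, so p-values reflect only how far these arrays spread, and that spread may be technical. NELF, the negative elongation factor, holds RNA polymerase II near promoters, and LacZ dsRNA stands for the effect of dsRNA as such.

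Integrins are receptors made of 1 alpha and 1 beta chain that bind the extracellular matrix outside the cell and the actin cytoskeleton inside it. In flies the betaPS chain, encoded by mys (myospheroid), pairs with alphaPS1 (mew, multiple edematous wings), which is known for binding laminin, with alphaPS2 (if, inflated), known for binding matrix proteins such as tiggrin, and with the alphaPS3 group. That group holds alphaPS3 (scb, scab) and alphaPS4 (ItgaPS4). The other beta chain, beta-nu (Itgbn), is known in hemocytes, the blood cells of the fly, where together with alphaPS3 it takes up apoptotic cells and bacteria. ItgaPS4 is used as a marker of lamellocytes, the flat hemocytes that encapsulate parasites.

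Values are log2 intensities as deposited, so a difference of 1 is a 2-fold difference in signal. The detection limit was 3.77 on this scale, the 95th percentile of the control probe sets. Arrays measured between 13854 and 14196 probe sets, and NELF dsRNA array 3 and LacZ dsRNA array 1 measured the fewest (13854 and 13935). The targeted genes were lower after NELF dsRNA: NELF-B had 4.76, 4.83 and 4.54 in NELF dsRNA cells against 7.16 to 7.63 over the 6 control arrays, and Nelf-E 2.52, 3.65 and 3.82 against 7.48 to 7.98. Of 19 hemocyte markers with a probe set, 9 were above the limit on all 9 arrays. These were srp, ush, crq, drpr, Pxn, Col4a1, vkg, PPO2 and PPO3. NimC1, gcm, lz and atilla were above it on none. Of 12 markers of muscle, neurons, fat body and germline, only elav was above the limit on all 9 arrays, and 4 were above it on none. None of the 9 that could be tested passed in NELF dsRNA against LacZ dsRNA, where 4.56% of all probe sets passed (limma, 0 also at an unadjusted p under 0.05). With so few and mostly dim markers, this 0 says little about them.

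After NELF dsRNA the messenger RNAs of 2 integrin subunits were lower, the beta chain gene Itgbn and the alpha chain gene ItgaPS4, each about 3 times. The main beta chain gene, mys, had means within 0.06 of both controls on the log2 scale. The alpha chain gene scb had lower means after NELF dsRNA that did not pass the test, mew did not pass either, and if was below the detection limit on every array that measured it. In NELF dsRNA against LacZ dsRNA 2 of 7 tested integrin probe sets passed (limma, Benjamini-Hochberg adjusted p under 0.05), both lower, while 4.56% of all 12975 tested probe sets passed and 2.71% were lower. Against untreated cells the same 2 probe sets passed, with 6.16% of 12973 called and 3.53% lower, and against both controls as 1 group they passed with 5.31% of 13990 called and 3.12% lower. These comparisons share the NELF dsRNA arrays. Signal from bulk RNA cannot tell fewer cells of a type from less RNA per cell.

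**Figure D1:**
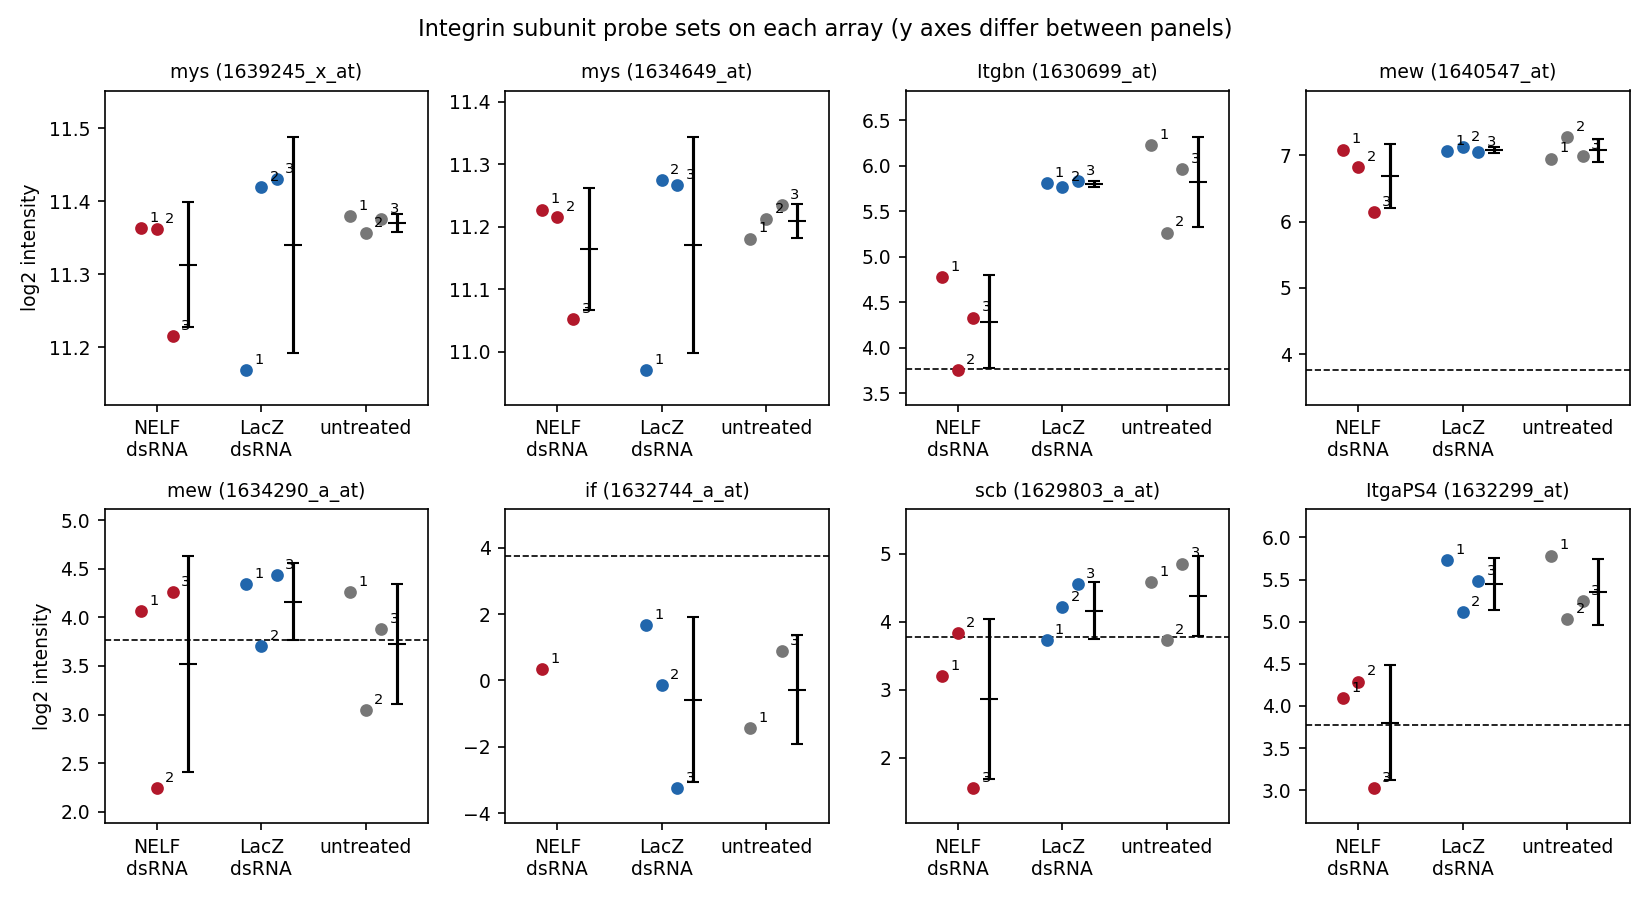
Log2 intensity (y axis, a different range in each panel) of the 8 integrin probe sets on the 3 arrays of each group. Points are arrays with their number, black bars are mean ± SD where a group had at least 2 values, and the dashed line is the detection limit, which lies below the range of the mys panels. The 3 NELF dsRNA points of Itgbn and of ItgaPS4 lie below all 6 control points.

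The beta chains differed. Itgbn had 4.78, 3.76 and 4.33 on NELF dsRNA arrays 1 to 3, against 5.81, 5.76 and 5.83 on the LacZ dsRNA arrays and 6.23, 5.27 and 5.97 on the untreated arrays. All 3 NELF dsRNA values lay below all 6 control values, and the gap between the highest of the first and the lowest of the second was 0.49. Array 2 of NELF dsRNA was just below the detection limit and the other two were above it. The LacZ dsRNA values lay close together, and the other groups spread over about 1 unit.

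Itgbn thus averaged 4.29 ± 0.51 after NELF dsRNA and 5.80 ± 0.03 after LacZ dsRNA (SD, n = 3 each), a fall of 2.85-fold with a 95% interval of 1.83-fold to 4.43-fold (log2 change -1.51, SE 0.30, limma adjusted p = 0.00624). Untreated cells averaged 5.82 ± 0.50 (SD, n = 3), and against them the log2 change was -1.53 (SE 0.30, limma adjusted p = 0.00485). With the 6 control arrays as 1 group it was -1.52 (SE 0.25, limma adjusted p = 0.000971). Set against the mean of those 6, the single NELF dsRNA arrays were lower by 2.05-fold, 4.15-fold and 2.79-fold. Both pairwise calls were lost without the variance trend of the test (adjusted p = 0.079 and 0.0587), with empty cells filled at the 10th percentile (0.0742 and 0.0577) and with values below the detection limit raised to it (0.0667 and 0.053), while the call against both controls passed in all 19 alternatives run, with adjusted p up to 0.0203.

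By contrast mys was bright and steady. Its probe set 1639245_x_at had 11.36, 11.36 and 11.21 after NELF dsRNA, 11.17, 11.42 and 11.43 after LacZ dsRNA and 11.38, 11.36 and 11.38 in untreated cells. The lowest values of the treated groups were on NELF dsRNA array 3 and LacZ dsRNA array 1, the arrays with the fewest measured probe sets, and the other 7 arrays lay between 11.36 and 11.43. The suffix _x_at marks a probe set that can share probes with other transcripts, and the second probe set, 1634649_at, lay 0.14 to 0.20 below it on every array. That probe set had 11.23, 11.22 and 11.05 after NELF dsRNA, 10.97, 11.27 and 11.27 after LacZ dsRNA and 11.18, 11.21 and 11.23 in untreated cells.

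The log2 change of mys in NELF dsRNA against LacZ dsRNA was -0.03 (95% interval -0.18 to 0.13) by the first probe set and -0.01 (-0.17 to 0.16) by the second, and neither passed (limma adjusted p = 0.915 and 0.985). Against untreated cells the values were -0.06 (-0.21 to 0.10) and -0.04 (-0.21 to 0.12). These intervals exclude a fall of the size measured for Itgbn. They leave room for a change of up to about 0.2 in either direction.

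Whether the beta chains moved unequally was tested within arrays. The difference Itgbn minus mys was lower by 1.48 on the log2 scale in NELF dsRNA cells than in the 6 control arrays, and the ranges did not overlap: -7.60 to -6.59 on the NELF dsRNA arrays and -6.09 to -5.15 on the control arrays. The two-sided exact permutation test over arrays gave p = 0.0238, the smallest p that 3 arrays against 6 allow, or 0.0476 adjusted over the 2 such tests made. The pair was chosen with the fall of Itgbn already known, so this p is no independent evidence of it.

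**Figure D2:**
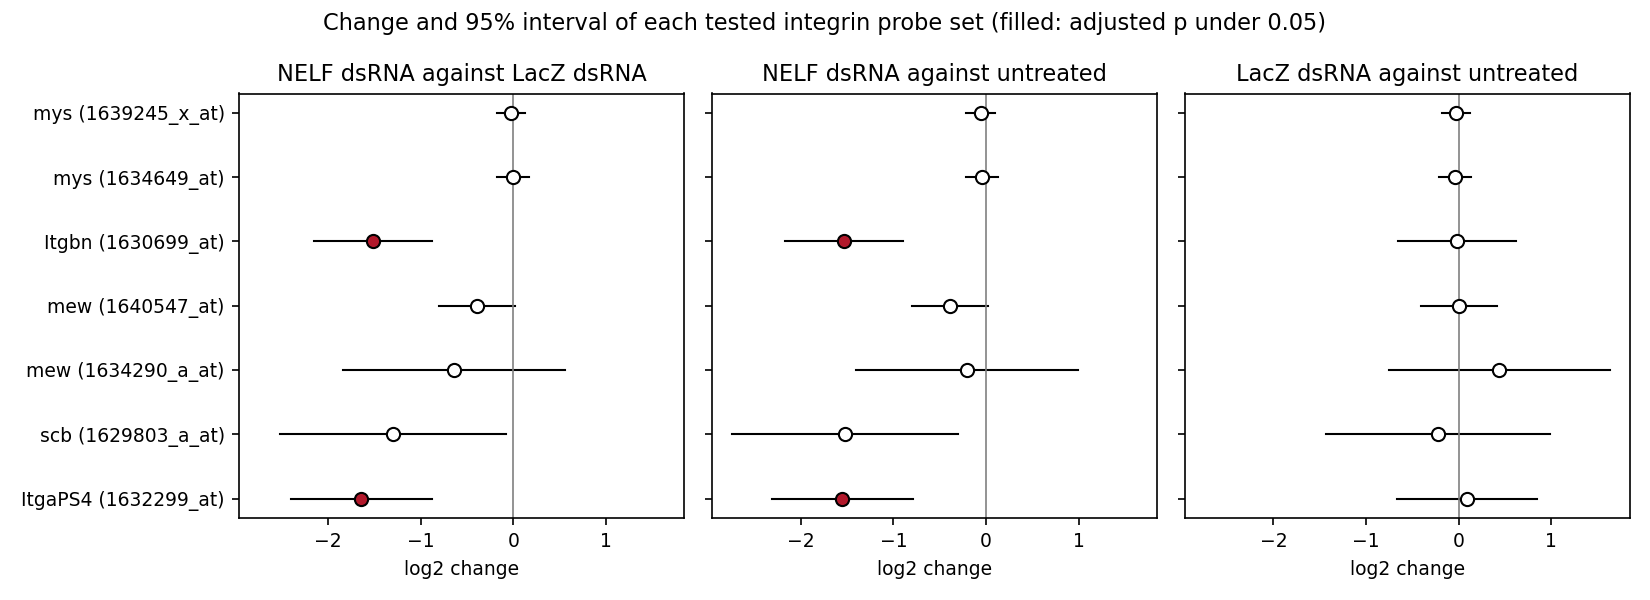
Log2 change (x axis) with its 95% interval for 7 integrin probe sets in the 3 pairwise comparisons. Filled points passed at an adjusted p under 0.05. Itgbn and ItgaPS4 lie near -1.5 in both comparisons with NELF dsRNA, mys lies near 0 in all 3, and no interval in LacZ dsRNA against untreated cells excludes 0. The probe set of if is not drawn.

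Among the alpha chains, ItgaPS4 had 4.09, 4.29 and 3.02 on NELF dsRNA arrays 1 to 3, against 5.73, 5.12 and 5.48 on the LacZ dsRNA arrays and 5.79, 5.03 and 5.24 on the untreated arrays. The NELF dsRNA values again lay below all control values, with a gap of 0.74. Array 3 was below the detection limit and the lowest of the 9. No overlap in the downward direction was seen for 6.45% of all 13990 probe sets tested against both controls, and for Itgbn and ItgaPS4 among the 7 integrin probe sets.

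ItgaPS4 averaged 3.80 ± 0.68 after NELF dsRNA and 5.44 ± 0.31 after LacZ dsRNA (SD, n = 3 each), a fall of 3.12-fold with a 95% interval of 1.84-fold to 5.28-fold (log2 change -1.64, SE 0.36, limma adjusted p = 0.0126). Untreated cells averaged 5.35 ± 0.39 (SD, n = 3), with a log2 change of -1.55 (SE 0.36, limma adjusted p = 0.0156). Against both controls the change was -1.60 (SE 0.30, limma adjusted p = 0.00311). Without NELF dsRNA array 3 the changes were -1.25 against LacZ dsRNA and -1.16 against untreated cells, and both passed (limma adjusted p = 0.0338 and 0.0461). The call against LacZ dsRNA was lost without LacZ dsRNA array 3 (adjusted p = 0.0505), and that against untreated cells without untreated array 1 (0.0892). Both were lost without the variance trend (0.101 and 0.0956) and with empty cells filled (0.105 and 0.103). With both of the arrays of fewest measured probe sets left out the change against LacZ dsRNA was -1.11 (0.0844).

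Among the 352 probe sets that fell in NELF dsRNA against LacZ dsRNA, ItgaPS4 was number 47 and Itgbn number 60 by size of the fall. The median log2 change of those 352 was -0.82. By adjusted p the 2 genes stood lower in the same list, at places 241 and 209, and their spread between NELF dsRNA arrays was 1.27 and 1.02 units.

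The gene scb lies next to ItgaPS4, with 0 genes between them in the RefSeq gene table. It had 3.20, 3.83 and 1.55 on NELF dsRNA arrays 1 to 3, against 3.72, 4.21 and 4.55 on the LacZ dsRNA arrays and 4.58, 3.72 and 4.85 on the untreated arrays. The groups overlapped, since NELF dsRNA array 2 lay above the lowest array of each control. The detection limit was passed on 1 NELF dsRNA array, 2 LacZ dsRNA arrays and 2 untreated arrays, so the gene was measured close to background throughout.

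Means of scb were 2.86 ± 1.18 after NELF dsRNA, 4.16 ± 0.42 after LacZ dsRNA and 4.38 ± 0.59 in untreated cells (SD, n = 3 each). The log2 change was -1.30 against LacZ dsRNA (95% interval -2.52 to -0.09, limma adjusted p = 0.292) and -1.52 against untreated cells (-2.74 to -0.31, limma adjusted p = 0.159), so neither passed. Without NELF dsRNA array 3 these values were -0.65 and -0.87. With values below the detection limit raised to it they were -0.39 and -0.61.

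Whether ItgaPS4 and scb moved unequally was not resolved at this number of arrays. The difference ItgaPS4 minus scb ran from 0.46 to 1.47 on the NELF dsRNA arrays and from 0.39 to 2.01 on the control arrays, and the means differed by -0.18 (two-sided exact permutation p = 0.69 over 84 arrangements). With values below the detection limit raised to it the difference was -0.85 (exact p = 0.0476), a setting that moves dim values of both genes. Without NELF dsRNA array 2 the difference was 0.06 (exact p = 0.929).

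The laminin receptor chain gene mew was read by 2 probe sets that did not follow each other, with a correlation of -0.14 over the 9 arrays. The brighter one, 1640547_at, was above the detection limit on every array and had 7.08, 6.82 and 6.14 after NELF dsRNA, 7.06, 7.12 and 7.04 after LacZ dsRNA and 6.95, 7.27 and 6.99 in untreated cells. NELF dsRNA array 3 stood apart from the other 8 arrays, which lay between 6.82 and 7.27. The dimmer one, 1634290_a_at, had 4.07, 2.24 and 4.26 after NELF dsRNA, 4.35, 3.71 and 4.44 after LacZ dsRNA and 4.26, 3.04 and 3.88 in untreated cells, and there the low NELF dsRNA array was array 2.

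By the brighter probe set mew averaged 6.68 ± 0.48 after NELF dsRNA and 7.08 ± 0.04 after LacZ dsRNA (SD, n = 3 each), a log2 change of -0.39 that did not pass (95% interval -0.80 to 0.01, limma adjusted p = 0.358). Against untreated cells it was -0.39 as well (-0.80 to 0.02, limma adjusted p = 0.31). Without NELF dsRNA array 3 these values were -0.13 and -0.12. The dimmer probe set had -0.64 and -0.20 with wider intervals (-1.84 to 0.55 and -1.40 to 0.99), and neither passed (limma adjusted p = 0.682 and 0.905).

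**Figure D3:**
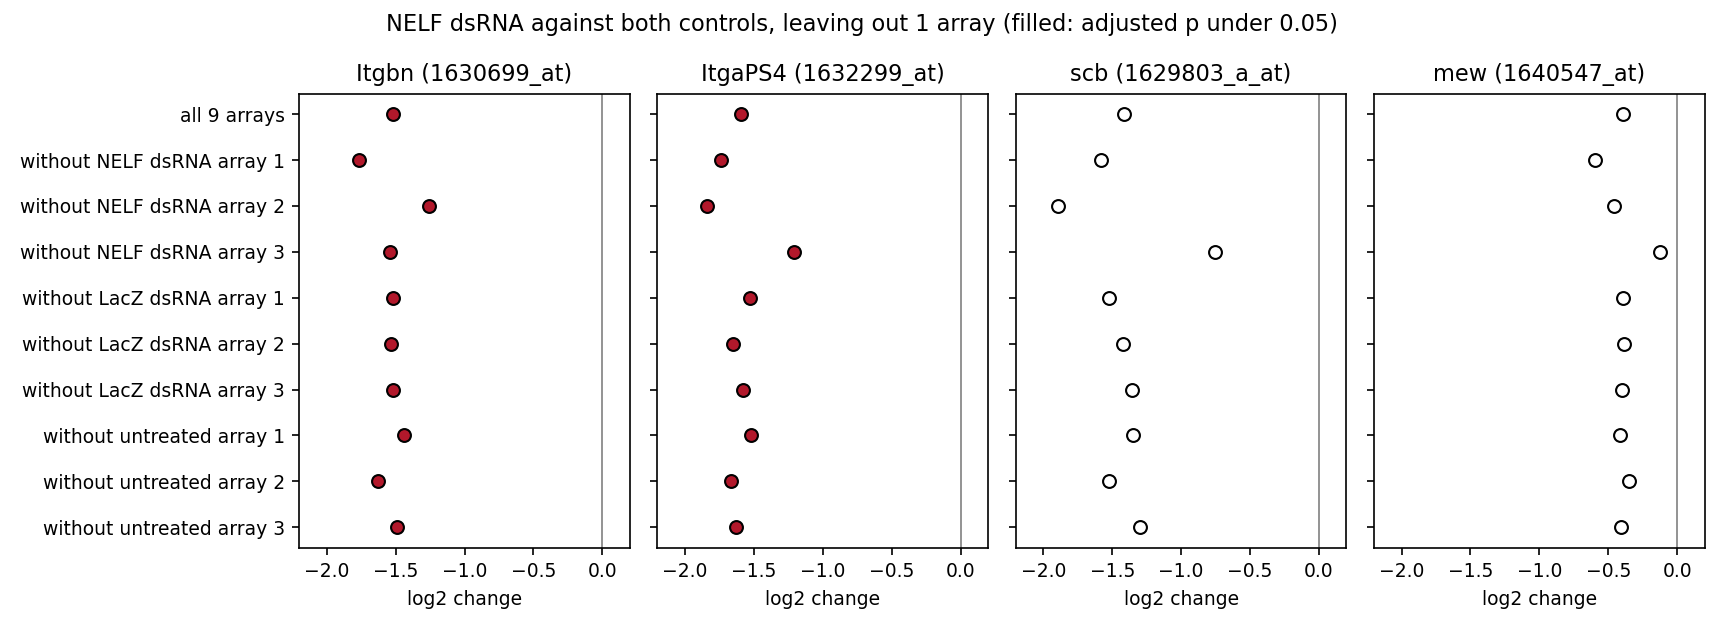
Log2 change in NELF dsRNA against both controls (x axis) with all 9 arrays and with each array left out in turn (y axis), for Itgbn, ItgaPS4, scb and the brighter probe set of mew. Filled points passed at an adjusted p under 0.05: all 10 points of Itgbn and of ItgaPS4 and none of scb or mew. Leaving out NELF dsRNA array 3 brought scb to -0.76 and mew to -0.12.

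The probe set of if, the alphaPS2 gene, had a value on 6 of the 9 arrays, and none reached the detection limit. It had 0.34 on NELF dsRNA array 1 and no value on arrays 2 and 3, 1.67, -0.14 and -3.25 on the LacZ dsRNA arrays, and -1.45 and 0.88 on untreated arrays 1 and 3. With 1 value after NELF dsRNA it could not be tested there, and no fold is given. ItgaPS5, the gene of the remaining alpha chain, was outside the 6 genes and likewise had values on 6 arrays, at most 3.41, none above the limit.

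No change of an integrin gene after LacZ dsRNA was resolved with 3 arrays a group. None of 8 probe sets passed in LacZ dsRNA against untreated cells, by limma with or without the variance trend, and 0 had an unadjusted p under 0.05, as 10.4% of all probe sets had. Over all 12974 probe sets 7 passed (0.054%). The log2 changes of Itgbn and ItgaPS4 were -0.02 (95% interval -0.65 to 0.62) and 0.09 (-0.67 to 0.85). For mys the intervals were -0.18 to 0.12 and -0.21 to 0.13. They were wider for scb (-1.43 to 0.99), the dimmer mew probe set (-0.75 to 1.63) and if (-4.84 to 4.26). For these a 2-fold change is not excluded. In the order of means Itgbn and scb ran NELF dsRNA, LacZ dsRNA, untreated and ItgaPS4 ran NELF dsRNA, untreated, LacZ dsRNA, with the 2 controls apart by less than their SD in each case.

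Across the integrin set all 7 tested probe sets had a log2 change below 0 in NELF dsRNA against LacZ dsRNA, as had 48.9% of all probe sets. The median was -0.64, against 0.01 over all probe sets, and values ran from -1.64 to -0.01. Against untreated cells all 7 were again below 0, as were 49.6% of all probe sets, with a median of -0.39 against 0.00. These probe sets share arrays, mys and mew each count with 2 of them, and 5 of the 7 values did not pass. The members were chosen with earlier results of these data known, so these counts and medians only describe the set. NELF dsRNA array 3 was the lowest NELF dsRNA array for mys, scb, ItgaPS4 and the brighter mew probe set, and array 2 was the lowest for Itgbn and the dimmer mew probe set.

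The profiles of the members over the 9 arrays were also compared with each other and with all genes, as a description. Pearson's r between Itgbn and ItgaPS4 was 0.83, between scb and ItgaPS4 0.86 and between Itgbn and mys 0.22 by the brighter mys probe set. Among 6482 probe sets measured on all arrays, the genes most like Itgbn were B4, spz5, a neurotrophin-like ligand of the Spätzle family, and CG7530 (r of 0.98, 0.98 and 0.97). Those most like ItgaPS4 were CG6163, CG31522 and fbp, which encodes fructose-1,6-bisphosphatase (r of 0.98, 0.98 and 0.97). All 6 were lower in NELF dsRNA cells than in both controls, with log2 changes of -0.38 to -2.26, and passed (limma adjusted p of 0.000256 to 0.0369). The points share the 9 arrays and the 3 groups, so genes that differ between groups correlate through that difference.

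For mys the most similar profiles were those of Sap47, Akap200 and Hrb27C by the brighter probe set and yps, TTLL12 and cic by the other (r of 0.96 to 0.98). None of these 6 passed in NELF dsRNA against both controls (limma adjusted p of 0.856 to 0.963). The gene lists of the 2 mys probe sets had no gene in common, although the probe sets correlated with each other at 0.98. For scb they were CG5568, Stat92E, the transcription factor of the JAK/STAT pathway, and mrt (r of 0.98, 0.97 and 0.94), and for the brighter mew probe set FBXO11, CG17698 and alpha-Est3 (0.96, 0.95 and 0.95).

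Integrins act with a complex of proteins on the inner face of the membrane that links them to actin. Of 24 genes listed 19 had a probe set, and 18 of these were above the detection limit on all 9 arrays. In NELF dsRNA against LacZ dsRNA 1 of 18 tested rose and none fell, a share near the 4.56% of all probe sets called. At an unadjusted p under 0.05 there were 7 of 18 in LacZ dsRNA against untreated cells, where 10.4% of all probe sets had one. In NELF dsRNA against LacZ dsRNA there were 4 of 18. The share over all probe sets at that threshold is not given here, so this count cannot be judged. The riser was cher, the actin crosslinker filamin, with 9.65, 9.66 and 9.63 after NELF dsRNA, 9.03, 9.26 and 9.52 after LacZ dsRNA and 9.42, 9.23 and 9.32 in untreated cells (log2 change 0.38, SE 0.10, limma adjusted p = 0.043).

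The median log2 change of this list was -0.03, against 0.01 over all probe sets. The gene rhea encodes talin, the protein that binds the beta chain tail and activates integrins. It had -0.27 (95% interval -0.45 to -0.09, limma adjusted p = 0.0923), which did not pass, with 0.05 against untreated cells and 0.32 in LacZ dsRNA against untreated cells (limma adjusted p = 0.841 and 0.177). Vinc, which encodes vinculin, had -0.14, and the genes of the Ilk, Pinch and parvin complex had 0.01 for Ilk, 0.11 for stck and 0.02 for parvin, none passing. Fit2, a kindlin gene, had 0.22, Pax, the paxillin gene, 0.07 and Fak, the focal adhesion kinase gene, -0.27. Zasp52 had -0.35 and Pak -0.27, with limma adjusted p of 0.0507 and 0.0647. Against untreated cells cher did not pass (0.32, limma adjusted p = 0.074) and Zyx, the zyxin gene, fell by 0.32 (limma adjusted p = 0.032), the 1 change among 18, where 6.16% of all probe sets were called. Against LacZ dsRNA Zyx had -0.10 (limma adjusted p = 0.665), and LacZ dsRNA against untreated cells gave -0.22 (limma adjusted p = 0.366).

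**Figure D4:**
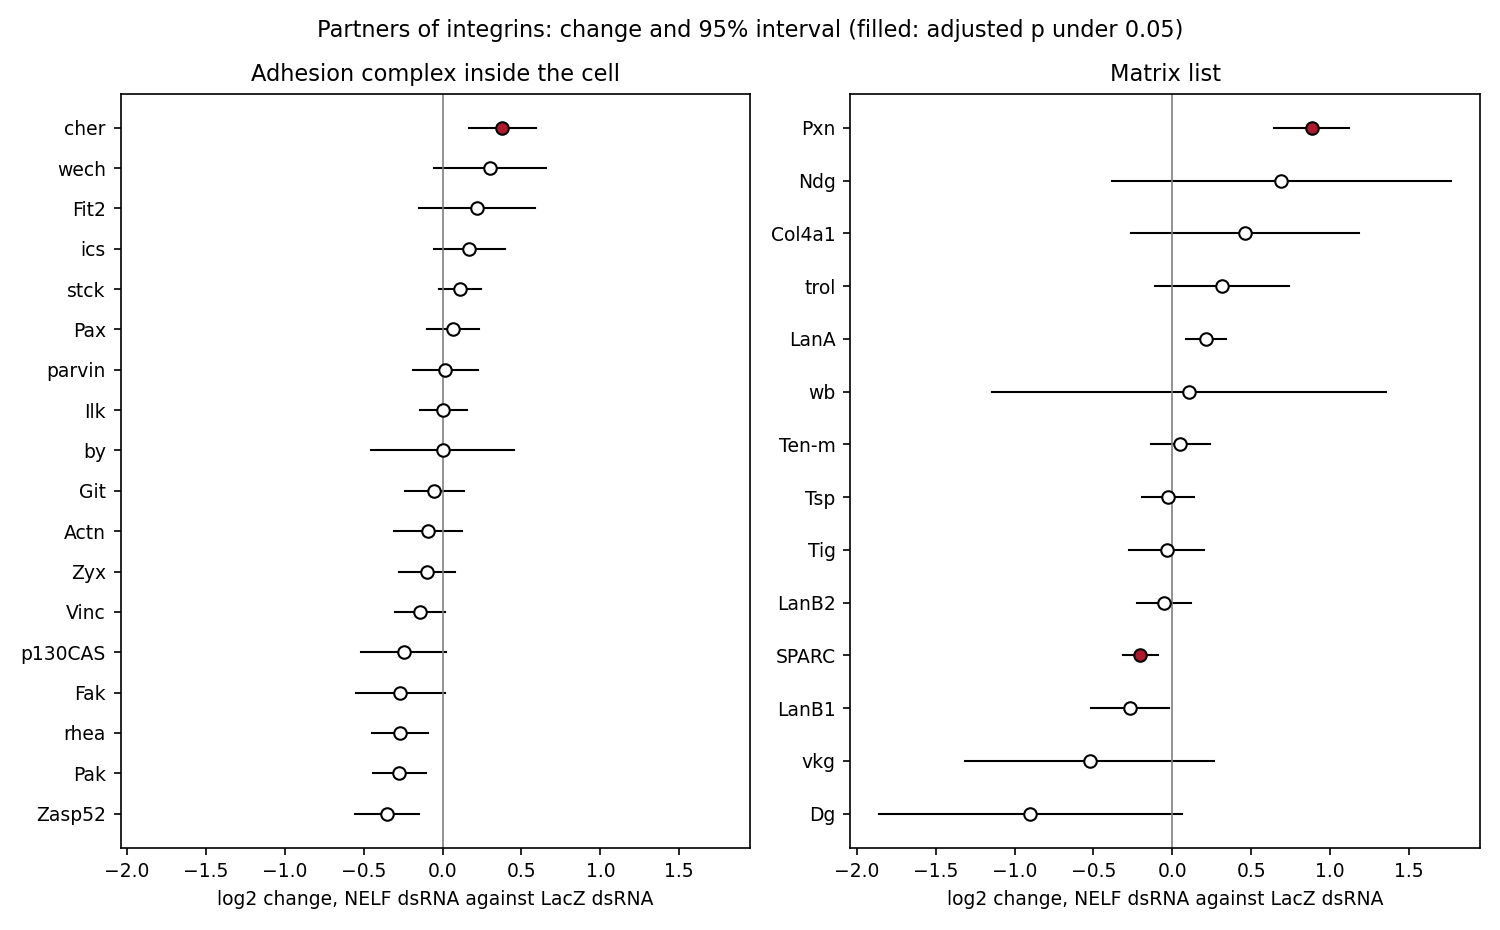
Log2 change in NELF dsRNA against LacZ dsRNA (x axis) with its 95% interval for 18 genes of the adhesion complex inside the cell and 14 genes of the matrix list, ordered by change. Filled points passed at an adjusted p under 0.05: cher in the first list, Pxn and SPARC in the second.

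On the outer side, 14 of 15 genes listed for the matrix had a probe set, and 1 rose and 1 fell in NELF dsRNA against LacZ dsRNA, where 4.56% of all probe sets were called. Against untreated cells 2 rose and 1 fell, where 6.16% were called. The genes of laminin chains, ligands of integrins, did not pass against LacZ dsRNA: LanA had 0.21 (limma adjusted p = 0.0516), LanB1 -0.27 and LanB2 -0.05. Against untreated cells LanA rose by 0.25 (limma adjusted p = 0.0171). Its values were 12.25, 12.27 and 12.16 after NELF dsRNA, 11.95, 11.98 and 12.10 after LacZ dsRNA and 12.00, 11.92 and 11.99 in untreated cells, so the NELF dsRNA arrays were above all controls.

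In NELF dsRNA against LacZ dsRNA Tig, the gene of the alphaPS2 ligand tiggrin, had a change of -0.03. The thrombospondin gene Tsp had -0.03, and the type IV collagen genes Col4a1 and vkg 0.46 and -0.52, none passing. The changes that passed against LacZ dsRNA were in Pxn, a peroxidase of the matrix (0.88, SE 0.11, limma adjusted p = 0.000131), and SPARC, a collagen-binding protein (-0.20, SE 0.05, limma adjusted p = 0.0395). By the brighter of its 2 probe sets Pxn had 8.55, 8.49 and 8.37 after NELF dsRNA. It had 7.35, 7.67 and 7.74 after LacZ dsRNA and 8.28, 8.25 and 8.02 in untreated cells. The LacZ dsRNA arrays were the lowest of the 3 groups. Against untreated cells Pxn had 0.29, which did not pass (limma adjusted p = 0.182), and LacZ dsRNA against untreated cells gave -0.60 (limma adjusted p = 0.0654). SPARC passed against untreated cells too (-0.30, limma adjusted p = 0.00204). The list also holds Dg, the gene of the matrix receptor dystroglycan. It had -0.90 against LacZ dsRNA and -1.23 against untreated cells, neither passing (limma adjusted p = 0.38 and 0.146). The laminin chain gene wb had 4.35, 4.16 and 3.48 after NELF dsRNA, 4.13, 3.71 and 3.83 after LacZ dsRNA and 1.96, 2.55 and 0.71 in untreated cells. All 3 untreated arrays, NELF dsRNA array 3 and LacZ dsRNA array 2 were below the detection limit. It rose against untreated cells (fitted log2 change 2.26, limma adjusted p = 0.0319), and the change against LacZ dsRNA was 0.11 (limma adjusted p = 0.962). LacZ dsRNA against untreated cells gave 2.15, which did not pass (limma adjusted p = 0.191).

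Among hemocyte markers 1 of 16 tested rose, Pxn, and 2 fell, both receptors for uptake of particles, in NELF dsRNA against LacZ dsRNA, where 4.56% of all probe sets were called and 2.71% were lower. Against untreated cells Pxn did not pass, and srp rose while the same 2 receptor genes fell. Of all probe sets 6.16% were called there and 3.53% were lower. Pxn, Col4a1 and vkg stand in both this list and the matrix list. The summed linear intensity of the 13 markers measured on all arrays ran from 3004 to 3342 after NELF dsRNA, 3070 to 3502 after LacZ dsRNA and 3021 to 3200 in untreated cells. This sum is carried by the brightest markers, such as srp, ush and crq (means over all arrays of 9.95, 9.61 and 9.03), and does not show a change in a dim marker. The gene eater had 5.01, 3.80 and 2.89 after NELF dsRNA, 6.60, 6.36 and 6.71 after LacZ dsRNA and 7.27, 6.29 and 6.86 in untreated cells, and drpr had 7.46, 7.03 and 7.71, against 8.34, 8.54 and 8.76 after LacZ dsRNA and 8.79, 8.26 and 8.90 in untreated cells. The median log2 change of the list in NELF dsRNA against LacZ dsRNA was -0.02. The transcription factor gene srp had 0.07 and crq, a scavenger receptor gene, -0.005 in the same comparison, neither passing. Against untreated cells srp had 0.34 (limma adjusted p = 0.0357), and LacZ dsRNA against untreated cells gave 0.27 (limma adjusted p = 0.295). PPO2, a crystal cell marker, had -0.66 (limma adjusted p = 0.362). The part of cell state or cell makeup in the falls of Itgbn and ItgaPS4 was not tested.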

How the data were processed

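Total RNA of S2 cells was labelled and hybridised to Affymetrix Drosophila Genome 2.0 arrays, scanned with GeneChip Operating Software 1.2.0.037 and imported into Rosetta Resolver 6.0, per the series' design text. The authors deposited 1 value per probe set and array, taken here as log2 intensity from its range (-16.35 to 13.63). Their summarisation over probes and their normalization, not given in the sources used here, could change any value. Among 161091 cells 34179 (21.2%) were empty and were kept missing. The number of arrays limits the precision.

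Groups and array numbers came from the labels. Group means over all 9 arrays were fitted with limma 3.58.1 in R 4.3.3 (lmFit, eBayes with a variance trend), for probe sets with at least 2 values in each group compared. P-values were adjusted by Benjamini-Hochberg over all of them, with a threshold of 0.05. The comparison with both controls used 3 arrays against 6. Exact permutation tests used SciPy 1.17.1. Scripts were tested on simulated data. Sequences are not used here.

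All probe sets of the 6 genes were named. List genes were named where they passed in NELF dsRNA against LacZ dsRNA, together with others picked for their known role after their values were seen. For likeness, the 3 genes of highest Pearson's r were named among probe sets of 1 gene measured on all arrays with a mean above the detection limit. The members and lists were chosen with earlier results of these data known. Genes of the lists with no matching probe set (Fit1, Src42A, Src64B, Rap1, sif and mfas among the integrin partners) were not analysed here. Each list gene was read only by its probe set of highest mean. Further probe sets, as for Pxn, wb, Tsp and trol, are not shown and could differ. Alternatives covered the variance trend, low and empty values, normalization, filters, the replicate number as a block, the arrays fitted and leaving out arrays.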

Additional observations from a re-analysis of the deposited data

How the results depend on the processing

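Precision was limited by 3 arrays a group and by signal close to the detection limit for scb, the dimmer mew probe set and the NELF dsRNA arrays of Itgbn and ItgaPS4. The 2 calls against both controls were kept in all 19 alternatives. Against LacZ dsRNA and against untreated cells, 0 integrin probe sets passed without the variance trend in each comparison (limma, 228 and 356 of all probe sets, against 592 and 799 with it), and likewise 0 with empty cells set to the 10th percentile. With values below the detection limit raised to it, a setting chosen after seeing the data, 1 passed in each comparison, ItgaPS4. With LacZ dsRNA array 1 and array 3 of NELF dsRNA both left out, 1 passed against LacZ dsRNA, Itgbn. Leaving out 1 array at a time gave 1 to 2 in both comparisons, with 1 without LacZ dsRNA replicate 3 and 1 without untreated replicate 1. Without the trend 363 probe sets passed against both controls, against 743 with it, and 1 in LacZ dsRNA against untreated cells, against 7.

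Itgbn minus mys ran from -1.70 to -1.19 when 1 array was left out. Leaving out a NELF dsRNA array gave an exact p of 0.0714, and leaving out those same 2 arrays gave -1.51 with p = 0.0952, each the smallest p those designs allow. ItgaPS4 minus scb ran from -0.45 to 0.06 with 1 array left out, with 0.0564 without NELF dsRNA replicate 2, and was -0.85 (exact p = 0.0476) with values raised to the detection limit. The cause of these differences was not tested.

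Whether array numbers pair the samples is not stated in the labels. Correlations of deviations from group means ran from -0.21 to 0.13 for the 9 same-numbered pairs and from -0.17 to 0.25 for the 18 others. The highest joined NELF dsRNA array 3 and LacZ dsRNA array 1, the arrays with the fewest measured probe sets. Whether array quality plays a part in this was not tested, and these values cannot exclude a pairing. With the replicate number as a block, 2, 2 and 2 integrin probe sets passed in the comparisons of NELF dsRNA with LacZ dsRNA, untreated cells and both controls, and 0 in LacZ dsRNA against untreated cells, while 530, 733, 683 and 9 of all probe sets passed.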
